A study of Mus musculus with 7 samples.

Results

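Natural killer (NK) type and innate lymphoid type cells of mammary tumors were examined here by their transcripts. NK cells are lymphocytes that kill without a rearranged antigen receptor. They weigh signals from activating and inhibitory receptors of the Klr family, and they release granzymes and perforin from granules. Activating receptors of NK cells pass signals on through adapter proteins such as Tyrobp and Fcer1g. NK cells also secrete chemokines, among them Xcl1, which attracts dendritic cells.

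The cells were chosen by a rule on UMI counts (unique molecular identifiers, 1 for each captured transcript) in barcodes with 200 to 6000 detected genes. A member had 0 UMIs over Cd3d, Cd3e, Cd3g and Trac, at least 2 UMIs over the effector genes Ncr1, Klrb1c, Xcl1, Nkg7, Gzma, Gzmb and Prf1, and at least 1 UMI of Tyrobp or Fcer1g. A member also had 0 UMIs of C1qa, C1qb and C1qc, under 5 UMIs over H2-Aa, H2-Ab1, H2-Eb1 and Cd74, and at most 1 UMI over Epcam, Krt8 and Krt18. In all, 140 of 15047 cells met the rule. They were compared within each tumor with CD3 cells (1786 cells with at least 1 UMI over Cd3d, Cd3e, Cd3g and Trac) and with the cytotoxic CD3 cells among them (560 cells that also had at least 2 effector UMIs).

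The 7 tumors came from 7 mice labelled MMTV-PyMT; HK2 f/f with a wild type genotype, in which the MMTV promoter drives the polyoma middle T oncogene in mammary epithelium and the hexokinase 2 gene is floxed but not deleted. By the study's methods these controls had tamoxifen too. Mice whose HK2 was deleted in the whole body by ERT2Cre and tamoxifen were not analysed here. Each tumor was taken 3 months after it became palpable and gave 1 Drop-seq library. All 7 belong to the control group, so no treatment was compared.

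Across the libraries, 1133 to 4780 barcodes passed as cells, with 962677 to 4471473 UMIs, and a cell had a median of 576 UMIs. Members had a median of 540.5 UMIs and 383.5 genes, CD3 cells 460 UMIs and cytotoxic CD3 cells 525.5 UMIs. Libraries shared 5 cell barcodes, none of which was a member's. Members gave 95419 UMIs in total, so each gene was read over pooled cells. Only 4 mice (replicates 2, 4, 5 and 7) had at least 10 members, and the tests rest on these 4, with 127 members, 1618 CD3 cells and 504 cytotoxic CD3 cells.

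NK type cells were a small part of every tumor. They made up 0.232% of the cells of mouse 1 (5 members), 1.56% of mouse 2 (31), 0.480% of mouse 3 (6), 0.565% of mouse 4 (27), 1.48% of mouse 5 (23), 2.10% of mouse 7 (46) and 0.177% of mouse 8 (2). The mean share was 0.942% ± 0.759 (SD, n = 7). The exact 95% binomial interval was 1.54% to 2.79% in mouse 7, the highest, and 0.0214% to 0.636% in mouse 8, the lowest, and covers counting error only. Both of the title series in the labels, CB (mice 1 to 4) and WT (mice 5, 7 and 8), held low and high tumors, from 0.232% to 1.56% and from 0.177% to 2.10%. Set against the CD3 cells, NK type cells were 4% (mouse 1) to 16.7% (mouse 3) of the pool, and all 7 exact intervals of that share overlapped between 7.65% and 7.68%. CD3 cells themselves ranged from 1.59% of cells in mouse 8 to 22.6% in mouse 2.

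**Figure D1:**
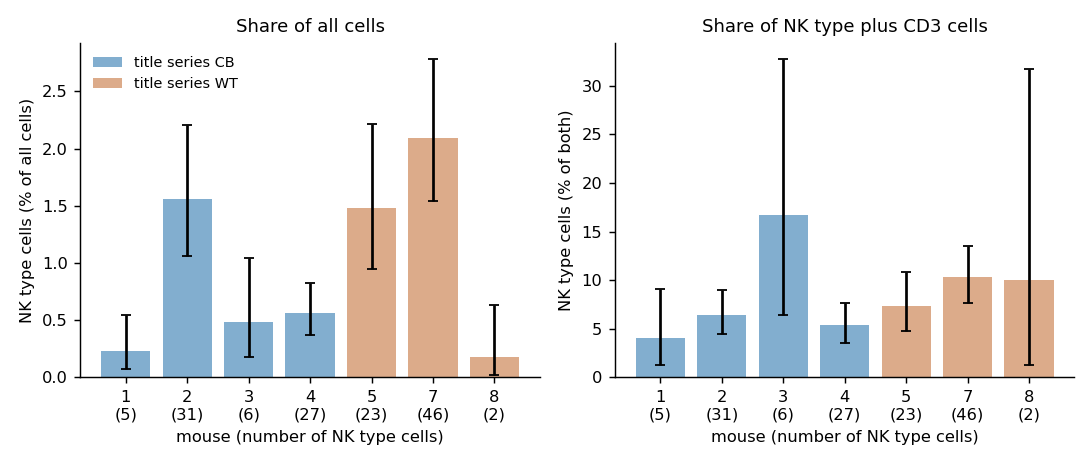
Share of NK type cells in each of 7 tumors, as a percentage of all cells (left) and of NK type plus CD3 cells (right), with exact 95% binomial intervals that cover counting error only; bars are colored by title series and the number of members stands under each. The left shares run from 0.177% in mouse 8 to 2.10% in mouse 7, and on the right the intervals of all 7 mice overlap.

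Most members stood clear of the lower limits on effector and adapter UMIs. They carried a median of 6 and at most 47 effector UMIs, and 19 carried exactly 2, whereas 11 cells missed the rule by having only 1. Exactly 1 UMI of Tyrobp or Fcer1g admitted 23 members, and 69 cells were left out for having none. The CD3 condition left out 198 cells, 45 of them by 1 UMI alone. C1q transcripts left out 5 further cells, keratins and Epcam 4, and MHC class II genes 1.

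The genes in the rule are described without a test. In the 4 mice, the level of Xcl1 (CPM, its UMIs scaled to the summed UMIs of the cell set) in members was 4207, 3565, 2671 and 4260, against 2462 ± 187 in cytotoxic CD3 cells and 830 ± 285 in CD3 cells (mean ± SD, n = 4 here and below). Fcer1g, an adapter of several activating receptors, reached 3366 ± 731 CPM in members and 1211 ± 185 in cytotoxic CD3 cells. Tyrobp, the adapter of activating Ly49 receptors, reached 2805 ± 526 and 576 ± 158 CPM. The pore former Prf1 reached 406 ± 149 and 51.0 ± 31.7 CPM, and the receptor Ncr1 (NKp46) 337 ± 174 and 19.9 ± 18.1 CPM. Nkg7, a granule protein, was at 3101 ± 940 CPM in members and 2935 ± 655 in cytotoxic CD3 cells, so on this gene the cells overlapped. The same holds for Gzmb, at 3362 ± 1362 and 2562 ± 331 CPM. C1q macrophage-type cells of the same tumors carried Tyrobp at 2871 and Fcer1g at 2498 CPM. Of 8 macrophage and monocyte markers, Csf1r, Adgre1, Fcgr1 and Ms4a7 had 0 UMIs in members, and Ctss was read in 10 members, Apoe in 9, Lyz2 in 3 and Cd68 in 1.

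The label was checked on 10 NK genes outside the rule (Klrd1, Klrk1, Klre1, Klra4, Klra8, Eomes, Tbx21, Il2rb, Ctsw and Txk). A UMI of at least 1 of these was found in 127 of 140 members (90.7%), 68.2% of cytotoxic CD3 cells, 38.6% of CD3 cells and 0.919% of C1q macrophage-type cells, and after each cell was thinned to 300 UMIs in 79.7%, 46.5%, 27.0% and 0.379%. These genes are thus shared with cytotoxic T cells. Klrd1, the CD94 chain of the Klrc receptors, was found in 51.4% of members, 20.2% of cytotoxic CD3 cells, 9.29% of CD3 cells and 0.153% of C1q macrophage-type cells, with median depths of 540.5, 525.5, 460 and 575 UMIs. After the same thinning, which left out 12 members and 59 cytotoxic CD3 cells, the shares for Klrd1 were 30.5% and 10.4%. Of 14 ILC2 and ILC3 genes, 8 had no UMI in any member, among them Il1rl1, Il13, Il5, Il23r, Il22 and Il17a. This limits each to 34.5 CPM over the 4 mice (3 counts). In CD3 cells Il17a stood at 225 CPM, but Il13, Il5, Il22, Il23r and Il1rl1 at only 0.651 to 13.3 CPM. For the latter genes, the lack of UMIs in members therefore shows no difference. The rest of the list gave 44 member UMIs. Areg had 13 UMIs in 127 members and 5 in 504 cytotoxic CD3 cells of the 4 mice. Its level was 147 CPM in members and 125 CPM in CD3 cells.

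T cell receptor genes were not all absent. Of the members, 72 carried a UMI of a T cell receptor constant gene outside the rule and 68 did not, and the 10 NK genes were found in 90.3% of the former and 91.2% of the latter. Trbc1 stood at 708, 382, 586 and 783 CPM in members and 626 ± 139 in CD3 cells, with overlapping mice. Trbc2 stood at 417, 446, 456 and 470 CPM in members, below every CD3 sum (1339 to 2153). Cd8a was found in 1.43% of members and 28.6% of cytotoxic CD3 cells, and Cd8b1 in 0.714% and 22.7%. Trdc, of gamma-delta T cells, was at 79.7 ± 61.1 CPM in members and 160 in CD3 cells.

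Members also held some transcripts known as markers of other cell types. Of the markers of mast cells and basophils, all 6 had 0 UMIs. Of 6 B cell markers 4 were at 0, but the summed level was 191 to 391 CPM in members, 242 to 289 in CD3 cells and 234 to 375 in cytotoxic CD3 cells. Of 5 endothelial markers 4 were at 0, all but Pecam1, and the sum was 0 to 261 CPM in members, 18.0 to 41.7 in CD3 cells and 10.7 to 29.2 in cytotoxic CD3 cells. The summed level of the 8 epithelial and tumor markers ran from 521 to 1974 CPM in members, from 730 to 8014 in cytotoxic CD3 cells and from 3784 to 16523 in CD3 cells. The 8 macrophage and monocyte markers ran from 188 to 573 CPM in members and from 550 to 2979 in CD3 cells. The sums of 5 fibroblast markers were 0 to 191 CPM in members and 105 to 2228 in CD3 cells, and those of 5 erythroid markers 0 to 2537 and 31.6 to 3776 CPM. Conventional dendritic cell markers summed to 0 to 255 CPM in members, against 18.0 to 47.4 in CD3 cells and 0 to 73.0 in cytotoxic CD3 cells. Plasmacytoid dendritic cell markers summed to 0 to 130 CPM, against 47.4 to 769 and 29.2 to 117. The part of these transcripts in the results was not tested. 1 member of mouse 7 held 22 S100a8, 16 S100a9 and 8 Retnlg UMIs, which made that mouse's neutrophil sum of 1441 CPM.

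Klra4, Klra8, Klrb1b, Klrd1, Gzmc, Irf8 and Car2 were higher in NK type cells than in CD3 cells, and Cd8a, Cd8b1, Klf2 and Ifi27l2a were lower. Over the 4 mice, 1869 genes were tested outside the rule by edgeR's quasi-likelihood test of the summed UMIs, paired by mouse, at a Benjamini-Hochberg adjusted p of 0.05. Of these, 71 were higher (3.80% of those tested) and 88 lower (4.71%). Against the cytotoxic CD3 cells, 801 genes were tested, 30 were higher (3.75%) and 13 lower (1.62%). The 2 comparisons share the same member sums, and 26 genes were higher and 11 lower in both. No set of CD3 cells had to hold a Tyrobp or Fcer1g UMI, and the part of this difference in the calls was not tested. Tyrobp was found in 70.0% of members and 19.6% of cytotoxic CD3 cells, and Fcer1g in 87.9% and 36.1%. CD3 cells also had to meet none of the members' limits on C1q, MHC class II, keratin and Epcam. Against CD3 cells held to these last limits, an alternative chosen after the data had been seen, 51 of 1592 genes were higher and 49 lower. Ribosomal protein genes made up 20 of these 49, and 7 of the 88 lower genes against all CD3 cells. In the latter comparison 101 ribosomal protein genes were tested, with a median log2 fold change of -0.22. Of the 71 higher genes, 49 were called again and 3 were not tested. Of the 88 lower genes, 24 were called again and 40 were not tested.

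**Figure D2:**
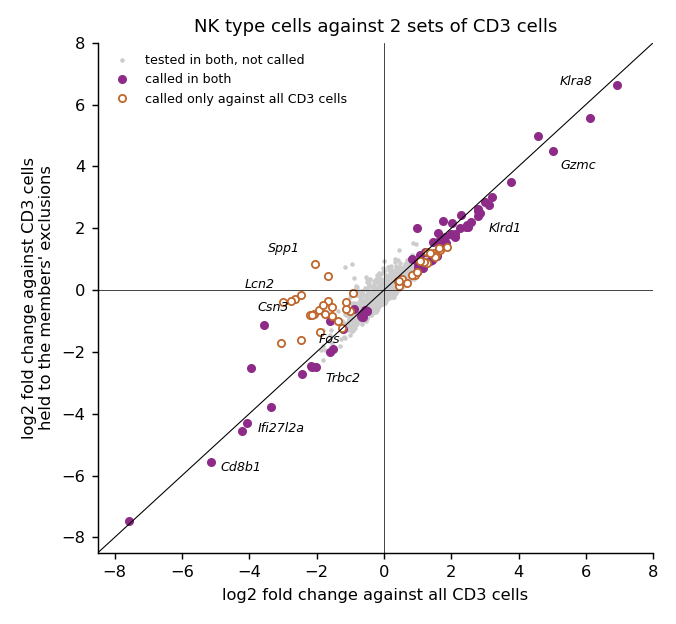
Log2 fold change of NK type cells against all CD3 cells (horizontal) and against CD3 cells held to the members' limits on C1q, MHC class II, keratin and Epcam (vertical), 1 point per gene tested in both; purple points were called in both and open orange points only against all CD3 cells. Higher genes lie near the diagonal, while Csn3, Lcn2, Spp1 and Fos lie well above it.

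Receptors of the Klra (Ly49) and Klrb (NKR-P1) families were among the higher genes. Klra4 (Ly49D, an activating receptor) stood at 1166, 1210, 1498 and 313 CPM in members of mice 2, 4, 5 and 7, and at 118, 0, 0 and 0 CPM in cytotoxic CD3 cells. Klra8 (Ly49H, the activating receptor known for recognizing mouse cytomegalovirus) stood at 875, 509, 1303 and 564 CPM in members and at 42.8, 0, 0 and 0 CPM in cytotoxic CD3 cells. For both genes the lowest member sum lay above the highest T cell sum, and T cell transcripts were found nearly all in mouse 2. The log2 fold change against CD3 cells was 6.91 ± 0.49 for Klra8 (edgeR adjusted p = 1.81e-12) and 6.13 ± 0.45 for Klra4 (adjusted p = 4.58e-12). The ± of a fold change, here and below, is the fold change over the square root of the test's F statistic. It is not a fitted standard error, and can lie below counting error where a set holds few UMIs. Against cytotoxic CD3 cells the log2 fold changes of Klra8 and Klra4 were 5.89 ± 0.52 and 4.95 ± 0.48. These sizes rest on mouse 2, where the T cell UMIs lay. Without it the log2 fold change against CD3 cells was 8.22 for Klra8 and 8.01 for Klra4. The cytotoxic CD3 cells then held no UMI of either gene, which makes Klra8 at least 66.1-fold and Klra4 at least 74.7-fold higher. Such bounds, here and below, give 3 counts to the set with 0 UMIs and take the other set's UMIs as counted, without their counting error. A Klra4 UMI was found in 22.9% of members, 0.357% of cytotoxic CD3 cells and 0.0619% of keratin-high cells (at least 2 UMIs over Epcam, Krt8 and Krt18). The 13 members of mice 1, 3 and 8 held no Klra4 or Klra8 UMI in 8426 UMIs, which allows up to 356 CPM for each.

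Klra4 and Klra8 are neighbors in the NK gene complex, at chr6:130043731-130067271 and chr6:130115226-130129898 (GENCODE M21, mm10, both on the minus strand). The 300 bases around their starts (250 before and 50 after, RefSeq, GRCm38.p6) are shown because these genes were read together in the members. The Klra4 window is chr6:130067222-130067521 and the Klra8 window chr6:130129849-130130148, both on the minus strand, and 259 of 300 aligned bases (86.3%) are identical.
Klra4: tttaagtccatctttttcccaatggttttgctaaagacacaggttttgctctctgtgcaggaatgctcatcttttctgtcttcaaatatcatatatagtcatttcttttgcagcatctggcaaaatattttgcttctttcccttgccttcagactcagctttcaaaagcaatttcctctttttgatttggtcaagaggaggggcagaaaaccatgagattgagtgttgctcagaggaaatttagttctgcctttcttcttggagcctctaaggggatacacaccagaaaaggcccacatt
Klra8: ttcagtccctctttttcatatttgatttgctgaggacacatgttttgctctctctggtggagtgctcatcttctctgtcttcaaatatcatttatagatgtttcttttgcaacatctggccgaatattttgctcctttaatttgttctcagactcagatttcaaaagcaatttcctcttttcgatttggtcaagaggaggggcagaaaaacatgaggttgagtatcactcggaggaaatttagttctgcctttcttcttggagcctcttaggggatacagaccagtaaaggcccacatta
Drop-seq reads transcript ends, and of the 50-base words in the last 300 bases of the longest annotated transcript, none of Klra4 and 19.1% of Klra8 (shared with Klra9) occur in another gene. The level of Klra8 is therefore less certain than that of Klra4.

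Other receptors were also higher in members. Klrb1b, an inhibitory NKR-P1 receptor, had 250, 446, 326 and 439 CPM in members and at most 78.0 CPM in any cytotoxic CD3 sum, a log2 fold change of 4.59 ± 0.53 against CD3 cells (edgeR adjusted p = 9.55e-08) and 3.45 ± 0.55 against cytotoxic CD3 cells. It was at 78.2 CPM in C1q macrophage-type cells too. Klrd1 stood at 1166, 1528, 1433 and 1410 CPM in members, above its 400 ± 109 CPM in cytotoxic CD3 cells in every mouse (log2 fold change 1.82 ± 0.22, edgeR adjusted p = 1.08e-07). Klri2 (5.64 ± 0.82) and Klrb1f (3.78 ± 0.64, or 4.86 without mouse 7) were higher against CD3 cells, and neither was tested against cytotoxic CD3 cells. Of 28 listed receptors, 16 passed the filter on low counts and 10 of these were higher against CD3 cells, with a median log2 fold change of 1.95 beside -0.08 over all genes tested. A gene could pass this filter through 1 set alone. Klri2, Klrb1f, Klrb1b, Klra4 and Klra8 were among those that did so, which favored a higher level in members. Klri2 stood at 94.0 to 318 CPM in members and at most 9.01 CPM in CD3 cells. The others named stood at no more than 41.9 CPM in any CD3 sum. Against cytotoxic CD3 cells 9 receptors were tested and 4 were higher, with a median of 1.07 beside 0.01. Klra4, Klra8 and Klrb1b passed the filter there through the members alone. These counts and medians therefore support no shift of the receptor list. The activating receptor gene Klrk1 (NKG2D) and the IL-2 and IL-15 receptor chain Il2rb were among those called against CD3 cells alone, at 423 ± 297 and 450 ± 187 CPM in members and 228 ± 100 and 288 ± 59 in cytotoxic CD3 cells.

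**Figure D3:**
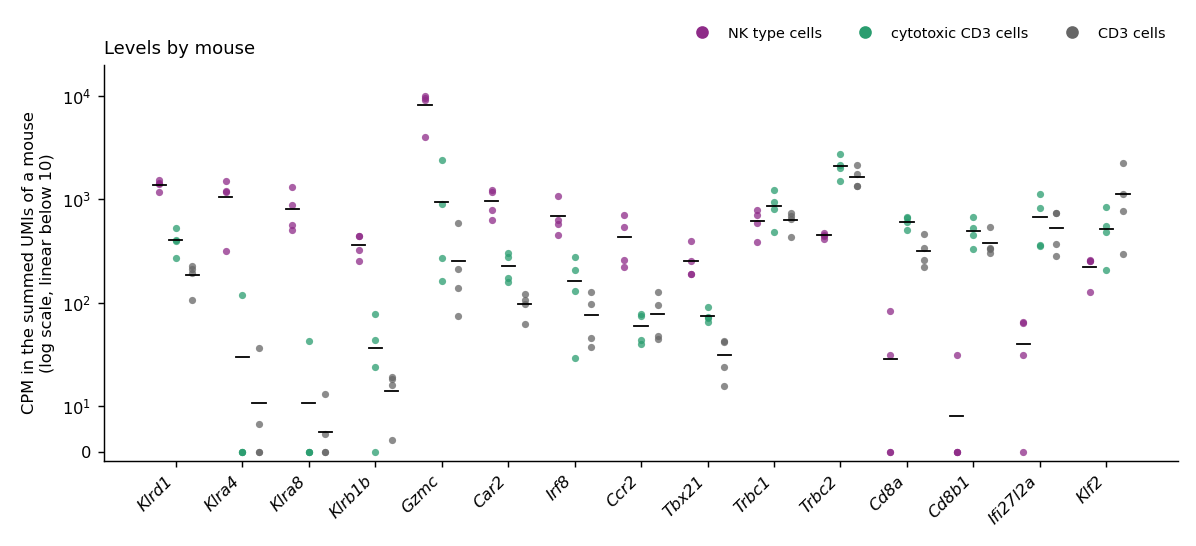
CPM in the summed UMIs of each of 4 mice (points) and their mean (short lines) for NK type cells, cytotoxic CD3 cells and CD3 cells; the axis is logarithmic above 10 CPM and linear below. Klra4, Klra8, Klrb1b and Gzmc are higher in members in every mouse, Trbc1 overlaps between the cell sets, and Cd8a, Cd8b1 and Ifi27l2a are lower in members.

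Of the granule genes tested, Gzmc had the largest fold change in both comparisons. Gzmc (granzyme C), a serine protease of cytotoxic granules, stood at 9913, 9104, 4039 and 9491 CPM in members, at 2386, 910, 161 and 270 CPM in cytotoxic CD3 cells, and at 586, 213, 73.8 and 137 CPM in CD3 cells. The member sums lay above all T cell sums, while those of cytotoxic CD3 and CD3 cells overlapped, and mouse 5 was lowest in all 3 sets. The log2 fold change was 5.03 ± 0.23 against CD3 cells (edgeR adjusted p = 1.17e-17) and 3.47 ± 0.25 against cytotoxic CD3 cells (adjusted p = 1.67e-12). The second was 4.24 without mouse 2 and 2.86 without mouse 7, and was called in both. Its UMIs were unevenly spread: 60 members held 803, and 5 of them held 364. Gzmd and Gzme, neighbors of Gzmc in the granzyme cluster, had 16 and 7 UMIs in members and 0 in CD3 cells. That makes them at least 71.7-fold and 31.4-fold higher (against 3 counts over the 4 mice), with the member UMIs taken as counted. These UMIs lay in 3 and 4 members, 12 and 5 of them in mouse 7 and the rest in mouse 2. Without mouse 7 the bound for Gzmd is 21.95-fold, and Gzme has 2 UMIs and no bound. Without mouse 2 the bounds are 49.9-fold and 20.8-fold. Their transcript ends share 9.96% and 11.6% of 50-base words with other genes. Gzmk had 0 UMIs in members and 110 ± 98.3 CPM in cytotoxic CD3 cells, where 31 of its 46 UMIs were in mouse 7. It was at least 3.66-fold lower over the 4 mice, and the bound is 1.15-fold without mouse 7. Of 20 listed granule and death ligand genes, 8 were tested and 5 were higher against CD3 cells, beside 3.80% of all genes tested. The median log2 fold change was 1.32, beside -0.08 over all genes tested. Gzmc and Serpinb9 passed the filter on low counts through the members alone, so this count and median support no shift of the list. The 5 higher genes included Ctsw (1.37 ± 0.22), a cathepsin of cytotoxic cells, and the granzyme inhibitors Serpinb9 (2.04 ± 0.35) and Serpinb6b (1.58 ± 0.38), the last of which was not called without mouse 4 (edgeR adjusted p = 0.0562). Against cytotoxic CD3 cells, Serpinb9 passed with Gzmc (1.02 ± 0.29, edgeR adjusted p = 0.0265), but was not called once any of the 4 mice was left out.

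The Gzmc window, chr14:56234608-56234907 on the minus strand, and that of Ncr1, chr7:4337465-4337764 on the plus strand (GRCm38.p6), are shown for a motif. Capitals mark TGTGGT, the core of RUNX factor sites, on either strand, and it is not found in the Klra4 and Klra8 windows above.
Gzmc: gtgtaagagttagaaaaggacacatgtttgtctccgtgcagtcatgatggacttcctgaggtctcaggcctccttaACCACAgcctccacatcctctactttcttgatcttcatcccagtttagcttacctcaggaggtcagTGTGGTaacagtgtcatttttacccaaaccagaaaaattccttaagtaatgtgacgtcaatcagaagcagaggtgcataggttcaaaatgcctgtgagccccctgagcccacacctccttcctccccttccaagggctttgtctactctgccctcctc
Ncr1: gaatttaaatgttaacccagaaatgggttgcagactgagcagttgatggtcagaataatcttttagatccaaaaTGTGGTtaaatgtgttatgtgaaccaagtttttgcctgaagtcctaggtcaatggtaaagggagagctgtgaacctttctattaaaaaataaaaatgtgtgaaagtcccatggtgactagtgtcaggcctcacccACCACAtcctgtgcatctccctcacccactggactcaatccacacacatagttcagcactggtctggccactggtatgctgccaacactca
The motif is in 16.8% of 32851 windows, and in all 8 windows that were found for the 9 effector and adapter genes of the rule (Tyrobp had none). Among the genes higher against CD3 cells it is in 12 of 50 windows (24.0%), beside 12.6% of the windows of all genes tested. Against cytotoxic CD3 cells it is in 4 of 24 (16.7%), beside 13.8%. The core of T-box sites, GGTGTG, was searched on both strands as well, and is in 19.0% of all windows and in 2 of the 8 windows of the rule's genes. It is in 30.0% of the windows of genes higher against CD3 cells, beside 17.1% of those tested, and in 6 of 24 against cytotoxic CD3 cells, beside 17.1%. These motifs were chosen with the genes known, and a match is no evidence of binding.

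Among transcription factors, Irf8, Tbx21 and Id2 were higher and Klf2 lower in members. Irf8, an interferon regulatory factor needed for myeloid cells and for NK cell function, stood at 1083, 573, 456 and 626 CPM, above the 29.2 to 278 CPM of cytotoxic CD3 cells (log2 fold change 2.02 ± 0.30, edgeR adjusted p = 8.85e-06). C1q macrophage-type cells carried Irf8 at 236 CPM. Tbx21 (T-bet), which directs NK and type 1 T cell programs, stood at 250, 191, 391 and 188 CPM in members and 30.9 ± 13.3 CPM in CD3 cells (2.86 ± 0.54, edgeR adjusted p = 0.000248). Id2, a factor required by innate lymphocytes, was at 819 ± 151 and 385 ± 130 CPM (1.02 ± 0.25, edgeR adjusted p = 0.00554), and was not called without mouse 2 (0.75, adjusted p = 0.117). Klf2, which maintains lymphocyte recirculation, stood at 250, 255, 261 and 125 CPM in members, below the CD3 sum of every mouse (293 to 2263), with log2 fold changes of -2.42 ± 0.31 against CD3 cells and -1.20 ± 0.33 against cytotoxic CD3 cells, where it was called in only 1 of 4 leave-one-out fits. Lef1 and Bcl11b, factors of T cells, had 0 UMIs in members and were at least 5.26-fold and 2.65-fold lower than in CD3 cells, or 2.70-fold and 1.71-fold without mouse 2. Against cytotoxic CD3 cells their bounds were only 1.27-fold and 1.67-fold. They fell to 0.696-fold for Lef1 without mouse 2 and 0.999-fold for Bcl11b without mouse 7, so no difference is shown there. Of 22 listed factors, 10 were tested, with a median log2 fold change of 0.54 beside -0.08 over all genes tested. Irf8 in both comparisons and Tbx21 against CD3 cells passed the filter on low counts through the members alone. This favored a higher level of both in members.

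Among adapters and homing genes, Lat was lower and Ccr2, Rgs1, Rgs2 and Itgb1 were higher against CD3 cells. Lat, the linker that T cell receptor signals run through, stood below CD3 cells in every mouse (108 ± 41.6 against 304 ± 50.6 CPM, log2 fold change -1.51 ± 0.42, edgeR adjusted p = 0.0167), but was not called without mouse 2 (adjusted p = 0.160) or mouse 5 (0.0817). The adapters Hcst (DAP10) and Cd247 (CD3 zeta) did not pass, at 690 ± 74.1 and 82.6 ± 53.5 CPM in members and 465 ± 101 and 124 ± 26.3 in CD3 cells. Sh2d2a, at 568 ± 236 CPM in members and 290 ± 117 in CD3 cells, was called higher without mouse 7 alone of the mice (edgeR adjusted p = 0.0230). Of 15 adapters and proximal kinases, 10 were tested, with a median log2 fold change of 0.35. Of 22 homing and residency genes, 12 were tested and 4 were higher against CD3 cells, beside 3.80% of all genes tested. Their median was 0.83, beside -0.08 over all genes tested. A gene could pass the filter on low counts through 1 set alone, so this count and median support no shift of the list. Ccr2, a receptor for monocyte chemoattractants, stood at 541, 700, 261 and 219 CPM, above all cytotoxic CD3 sums (39.7 to 78.0), with a log2 fold change of 2.78 ± 0.44 (edgeR adjusted p = 2.13e-05). It was at 249 CPM in C1q macrophage-type cells. Ccr2 passed the filter on low counts through the members alone in both comparisons, which favored a higher level in members. The G protein regulators Rgs1 (log2 fold change 1.14 ± 0.16) and Rgs2, at 3736 ± 1663 and 2262 ± 1079 CPM in members, were higher against CD3 cells, at 1559 ± 696 and 990 ± 532 CPM. The integrin Itgb1 was higher too (0.82 ± 0.27, edgeR adjusted p = 0.0491), but kept the call in only 1 of 4 leave-one-out fits. Rgs2 was the other gene of the list, with Ccr2, that was higher against cytotoxic CD3 cells (0.66 ± 0.18, edgeR adjusted p = 0.0185), in 3 of 4 mice, and it was not called without mouse 7 (0.38, adjusted p = 0.449). Cd69 was lower against cytotoxic CD3 cells (-1.29 ± 0.36, edgeR adjusted p = 0.0261).

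Of 16 cytokine and chemokine genes, 5 were tested, with a median log2 fold change of 0.30. Ccl5 stood at 2582, 7067, 3517 and 4229 CPM in members and was lower than in the cytotoxic CD3 cells of each mouse (4815, 9586, 6465 and 7411 CPM), a log2 fold change of -0.73 ± 0.12 (edgeR adjusted p = 2.16e-05). Against CD3 cells it did not pass, except as higher without mouse 7 (0.54, edgeR adjusted p = 0.0490). Tgfb1, at 320 ± 260 CPM in members and 113 ± 45.3 in CD3 cells, was called (edgeR adjusted p = 0.0359), yet it was lower in 1 of 4 mice and kept the call in only 1 of 4 leave-one-out fits. Ccl3 and Ccl4 were at 189 ± 88.2 and 380 ± 486 CPM in members and 55.9 ± 48.0 and 259 ± 161 in CD3 cells, and did not pass. Ifng had 3 UMIs in the members of the 4 mice.

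Several T cell genes outside the rule were lower in members. Cd8b1 had 1 UMI in the members of the 4 mice and 498 ± 144 CPM in cytotoxic CD3 cells (log2 fold change -5.23 ± 0.63, edgeR adjusted p = 1.33e-07). Cd8a had 3 UMIs and 609 ± 78.2 CPM (-4.05 ± 0.51, adjusted p = 2.41e-07 by the same test). Tcrg-C2, a constant gene of gamma-delta receptors, had 1 UMI and 405 ± 44.4 CPM (-4.93 ± 0.67), while Tcrg-C1 was at 98.0 ± 54.3 CPM in members and 114 in cytotoxic CD3 cells. Of the 4 mice, mouse 7 held the single UMI of Cd8b1 and of Tcrg-C2, and without that mouse they were at least 7.92-fold and 7.07-fold lower than in cytotoxic CD3 cells. Without mouse 2 the log2 fold change of Cd8a was -5.17. Trbc2 was lower by a log2 fold change of -2.24 ± 0.21 (edgeR adjusted p = 7.04e-10). Of 20 listed T cell genes, 13 were tested and 5 were lower against CD3 cells, with a median of -1.31. Cd8a, Cd8b1 and Tcrg-C2 passed the filter on low counts through the CD3 cells alone, so this count and median support no shift of the list. Icos, a costimulator, was among the 5 lower genes (-1.60 ± 0.47, edgeR adjusted p = 0.0233) and was not called without mouse 5 (0.0577) or mouse 7 (0.194). The IL-7 receptor gene Il7r was at 44.6 ± 36.6 CPM in members and 154 ± 31.7 in CD3 cells, and Areg at 147 ± 65.5 and 125 ± 55.4, and neither passed. Against CD3 cells under the members' limits, Il7r was called lower (log2 fold change -2.25, edgeR adjusted p = 0.0161).

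**Figure D4:**
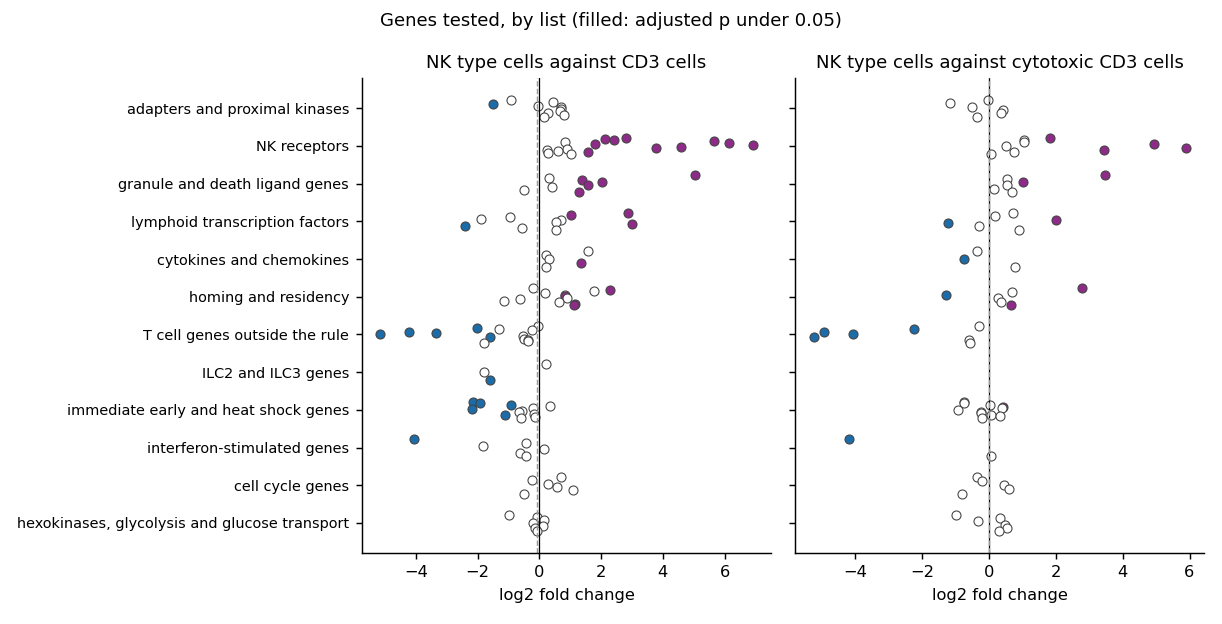
Log2 fold change of the tested genes of 12 lists in NK type cells against CD3 cells (left) and against cytotoxic CD3 cells (right); filled points passed an edgeR adjusted p of 0.05, solid lines mark 0 and dashed lines the median of all genes tested. Filled points of the NK receptor list lie to the right of 0 in both panels and those of the T cell list to the left, and no gene of the cell cycle or glycolysis list is filled.

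Of the interferon-stimulated genes, Ifi27l2a alone was called. It stood at 0, 63.7, 65.1 and 31.3 CPM in members (3 UMIs over these 4 mice), at 353 to 1132 CPM in cytotoxic CD3 cells and at 808 CPM in C1q macrophage-type cells, with log2 fold changes of -4.07 ± 0.51 against CD3 cells (edgeR adjusted p = 4.01e-07) and -4.16 ± 0.49 against cytotoxic CD3 cells. Of the 16 genes 6 were tested, with a median of -0.54 against CD3 cells. Ly6e, the most often read of them, was at 1713 ± 274 CPM in members and 2153 ± 795 in CD3 cells, Bst2 at 81.4 ± 163 and 183 ± 55.3, and Ifi47 at 67.8 ± 89.2 and 126 ± 36.3, and none of these passed. Of the 4 mice, only mouse 5 had Bst2 UMIs in members (5), and in the fit without that mouse Bst2 was called lower (edgeR adjusted p = 0.00152).

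Of the epithelial and macrophage markers fixed as lists, all 5 and all 3 that were tested were lower against CD3 cells, as were a few other genes known from such cells. The part of such transcripts in these calls was not tested beyond the fit under the members' limits. Fxyd3, Cldn3, Sox4, Hspb1, Dstn and Nfib, genes of epithelial or other tumor cells, had 0 UMIs in the members of the 4 mice and were at least 12.8-, 8.98-, 7.19-, 5.90-, 4.54- and 3.84-fold lower than in CD3 cells. With the mouse left out that lowered each bound most (mouse 7 for Fxyd3, Cldn3 and Nfib, mouse 4 for the others), the bounds were 7.65-, 5.32-, 3.98-, 3.72-, 2.76- and 2.39-fold. Their levels in keratin-high cells were 1749, 1130, 930, 884, 508 and 446 CPM, and under the members' limits they had too few UMIs in CD3 cells to be tested, as did the growth factor gene Hbegf (1 member UMI). The milk casein gene Csn3 was at 475 ± 303 CPM in members and 4918 ± 2857 in CD3 cells, and its log2 fold change went from -3.56 ± 0.21 to -1.14 under those limits. That of Lcn2 went from -2.75 ± 0.24 to -0.35, and Spp1 from -2.04 ± 0.31 to 0.83. Against all CD3 cells Spp1 was at -1.18 and not called without mouse 7 (edgeR adjusted p = 0.0578). PYMT, the oncogene transcript, was at 60.2 ± 42.1 and 430 ± 197 CPM. The macrophage genes Apoe (-3.55 ± 0.38), Lyz2 (-2.83 ± 0.57) and Ctss (-1.54 ± 0.42) were lower too, against CD3 cells that were not held to the C1q limit. Under the members' limits only 1 gene of the macrophage list could be tested, and it was not called. Lyz2 was at -3.79 without mouse 4. Ctss was at -2.19 without mouse 2, and at -1.06 and not called without mouse 7 (edgeR adjusted p = 0.241). The immediate early genes Fos (-2.15 ± 0.24), Egr1 (-2.19 ± 0.32), Fosb (-1.92 ± 0.30) and Jun (-0.92 ± 0.21) were lower against all CD3 cells, 5 of 12 tested on their list with Zfp36. Under the members' limits none of the 12 was called by edgeR, and Fos had a log2 fold change of -0.80 (edgeR adjusted p = 0.0764). Against cytotoxic CD3 cells 1 of 11 genes tested on that list, Junb, was called, and it was higher. Under the limits none of 10 was called there. Keratin-high cells carried Fos at 7835 CPM. Gm8369 differed from these: it had 0 UMIs in the members of the 4 mice, at least 4.64-fold lower than in CD3 cells (2.75-fold without mouse 2), was at 1.58 CPM in keratin-high cells, and stayed called under the limits.

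2 further groups of genes could be read only in part. None of 6 cell cycle genes tested of 15 passed edgeR's or DESeq2's test against CD3 cells, with 1 at an unadjusted p under 0.05. Pclaf was at 315 ± 129 CPM in members and 133 ± 47.9 in CD3 cells, Top2a at 186 ± 145 and 91.6 ± 12.7, H2afz at 299 ± 211 and 194 ± 66.5, and Tubb5 at 299 ± 61.6 and 380 ± 104. In members with at least 3 effector UMIs, Pclaf was called higher against CD3 cells (log2 fold change 1.21, edgeR adjusted p = 0.0282). Of 19 genes of glycolysis and glucose transport 7 were tested, and edgeR and DESeq2 called 0 of them, with 0 at an unadjusted p under 0.05. Ldha was at 608 ± 223 CPM in members and 608 ± 94.0 in CD3 cells, Pkm at 417 ± 214 and 413 ± 65.3, Gapdh at 261 ± 113 and 293 ± 110, and Gpi1 at 97.4 ± 81.9 and 201 ± 19.3. Hk1, Hk2 and Hk3, the hexokinases, had 2, 1 and 1 UMIs in 86993 member UMIs of the 4 mice, too few to set beside the 39 and 24 CPM of Hk1 and Hk2 in CD3 cells.

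Carbonic anhydrase 2 and a few less familiar genes were higher as well. Car2 stood at 791, 637, 1238 and 1190 CPM in members and 159 to 299 CPM in cytotoxic CD3 cells (log2 fold change 2.19 ± 0.27, edgeR adjusted p = 1.48e-07), and was found in 37.9% of members, 12.0% of cytotoxic CD3 cells and 8.49% of keratin-high cells. Gas7 (3.11 ± 0.74) and Gm6637 (3.39 ± 0.74) were higher against CD3 cells, on 12 and 13 member UMIs. Gas7, Gm6637 and, in both comparisons, Car2 passed the filter on low counts through the members alone.

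The calls were repeated in members with no T cell receptor UMI. In the 68 members without one, of which 3 mice had enough, Klra8, Klra4, Gzmc, Klrd1 and Car2 were called again against cytotoxic CD3 cells, with log2 fold changes of 5.19, 4.86, 2.91, 1.33 and 1.79. Irf8 (1.26, edgeR adjusted p = 0.293) was not called there. Ccr2 could not be tested in that comparison, and against CD3 cells its log2 fold change was 0.64 (edgeR adjusted p = 0.872). Ccr2 was at 513 CPM in members with a receptor UMI and 245 CPM in those without.

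Within the members, Gzmc and the Ly49 receptors Klra4 and Klra8 were mostly read in different cells. This split was chosen after the values were seen, and is given without a test. Gzmc alone was found in 52 members, Klra4 or Klra8 alone in 33, both in 8 and neither in 47. Of the members with a Gzmc UMI 13.3% also had a Klra4 or Klra8 UMI (exact 95% interval 5.94% to 24.6%), and of those without 41.3% (30.4% to 52.8%). The first share was lower in each of the 4 mice, at 16.7% and 52.6% in mouse 2, 21.4% and 53.8% in mouse 4, 12.5% and 46.7% in mouse 5, and 9.09% and 37.5% in mouse 7. After thinning to 300 UMIs the shares were 7.69% and 35.5%. In cytotoxic CD3 cells such a UMI was found in 3 of 50 cells with Gzmc and 1 of 510 without, and all 4 cells were in mouse 2, so no order can be read there.

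Other genes of these cells are given as levels, with Poisson 95% intervals for the first. Cells with Gzmc alone (41253 UMIs, median 626.5 a cell) held more Klrb1b, at 582 CPM (373 to 866) against 48.9 CPM (1.24 to 272) in cells with Klra4 or Klra8 alone (20460 UMIs, median 533). They also held more of the calcium-binding gene S100a4 (1139 against 147 CPM), more Lgals3 (1527 against 391) and more Rgs1 (4800 against 1955), each higher in all 4 mice. Itga1, Itgae and Cxcr6, used as marks of tissue-resident lymphocytes, had 7, 6 and 7 UMIs in the Gzmc cells (170, 145 and 170 CPM). They had 0 in the cells with Klra4 or Klra8, where up to 180 CPM is within the interval, so no difference is shown. The cells with Klra4 or Klra8 held more Ccl5 (6207 against 2448 CPM) and Klri2 (538 against 72.7), again in all 4 mice. Eomes, a factor of mature NK cells, had 8 UMIs in the cells with Klra4 or Klra8 and 1 in the Gzmc cells. Most of the 8 lay in mouse 2, with levels of 925, 0, 190 and 214 CPM in mice 2, 4, 5 and 7. Tbx21 had 4 UMIs in the cells with Klra4 or Klra8 and 12 in the Gzmc cells. Its levels were 196 CPM (53.3 to 501) and 291 CPM (150 to 508). The intervals overlapped, and each set was the higher in 2 of 4 mice. Klrd1, at 1454 and 1417 CPM, and Ctsw, at 1430 and 1271 CPM, had overlapping intervals. Of the effector genes of the rule, Gzmb was at 4824 CPM in the Gzmc cells and 1075 in the others, Prf1 at 121 and 978, Gzma at 1309 and 3275, and Nkg7 at 2521 and 4301. Every member was chosen by UMIs of these genes, so that a cell without one had to carry others, and these levels support no difference between the cells. Cells of 1 mouse are not replicates, and the intervals cover counting error only.

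**Figure D5:**
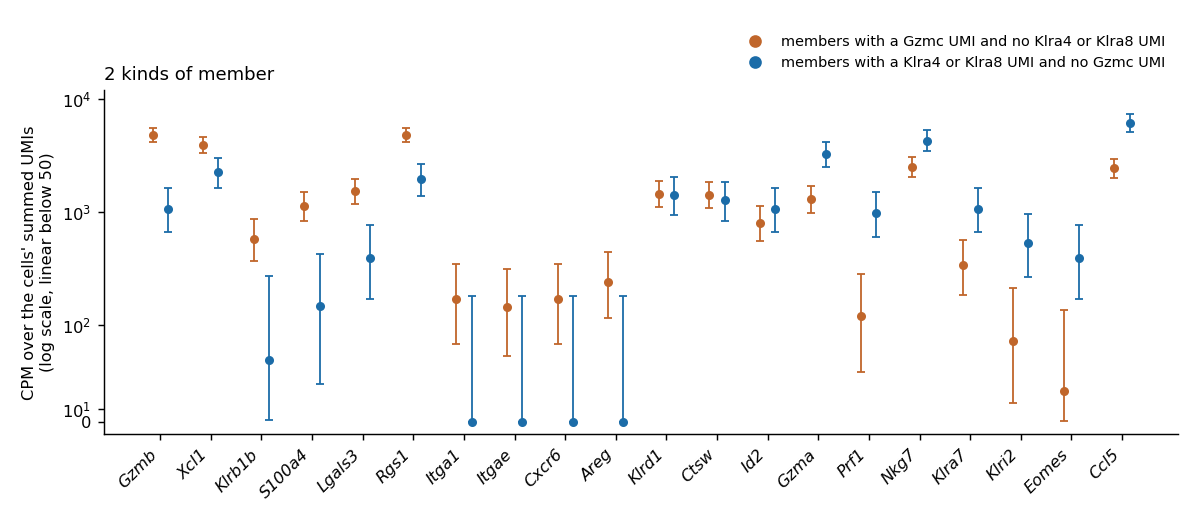
CPM over the summed UMIs of 52 members with a Gzmc UMI but no Klra4 or Klra8 UMI (orange) and 33 members with a Klra4 or Klra8 UMI but no Gzmc UMI (blue), with Poisson 95% intervals; the axis is logarithmic above 50 CPM and linear below. Klrb1b, S100a4, Lgals3 and Rgs1 are higher in the first set, Klri2 and Ccl5 in the second, and Klrd1, Ctsw and Id2 overlap, while Gzmb, Xcl1, Gzma, Prf1 and Nkg7 are genes by which the members were chosen.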

How the data were processed

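Single-cell suspensions of 7 tumors were run by Drop-seq, and the authors deposited 1 table of UMI counts (genes by barcodes) per library, not normalized. The study's methods name mm10 with the PyMT sequence added, whereas the submitters' processing notes list STAR, FastQC, GRCh37.p13 and hg19, and the counting program is not given in the sources used here. Tables hold 4000 to 7000 barcodes, and 2 of 7 list mitochondrial genes, which were dropped.

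Barcodes with 200 to 6000 genes were kept, cell sets were cut by UMI sums, and no doublet caller was run. The members and gene lists were chosen with earlier results of these data known. UMIs were summed per mouse and set. A mouse entered a test with at least 10 cells in both sets. The 23 genes of the rule were left out, and sums were tested with edgeR 4.0.16 (filterByExpr, TMM, mouse as block, glmQLFTest, Benjamini-Hochberg, threshold 0.05) in R 4.3.3, after a run on simulated data. The mouse pairs the sums because both come from 1 library. A gene could pass the filter on low counts through 1 set alone, so counts and medians of the lists support no shift of a list. Alternatives were DESeq2 1.42.0 and other filters and cell sets. Named genes were the 10 higher and 10 lower called genes with the largest fold in all fitted mice (5 and 5 against cytotoxic CD3 cells), up to 4 genes per list by adjusted p, the genes of the rule, 4 adapters and the hexokinases, and other names were chosen after their values were seen. Intervals cover counting error only, and the floor of 3 counts covers only that of the set with 0 UMIs. By the study's methods each library came from its own mouse.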

Additional observations from a re-analysis of the deposited data

Results flagged for a closer look

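Of 74 values by mouse that were examined (shares of cells in 7 mice, and CPM of named genes in the members of 4), 12 had 1 mouse far from the others by Dixon's criterion. Chance alone meets it in about 1 of 20 groups of normally spread values, which sparse UMI counts are not. A gene read in 1 of the 4 mice alone always meets it, so the 12 cannot be set against that rate. Gzmc was low in mouse 5, at 4039 CPM, where 8 of 23 members had a Gzmc UMI. Klf2 was low in mouse 7, at 125 CPM, and Gas7 high in mouse 2, at 167 CPM. Hbb-bs was high in mouse 7, at 2005 CPM. Over all mice, the 2 highest members held 45 and 27 Hbb-bs UMIs. Gpi1 was high in mouse 7, at 219 CPM, and Bst2 was read in mouse 5 alone among the 4, at 326 CPM. The remaining 6 rest on 1 or 2 UMIs in 1 mouse. These were Cd8b1 (31.3 CPM), Tcrg-C2 (31.3 CPM), Hbegf (31.3 CPM), Hk3 (31.3 CPM) and Hk1 (62.6 CPM) in mouse 7, and Hk2 (63.7 CPM) in mouse 4.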

How the results depend on the processing

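The 159 genes called against CD3 cells became 105 with DESeq2, 423 without a filter on low counts, 70 with mice of at least 5 cells (390 genes tested), 92 in members without T cell receptor UMIs, 76 against CD3 cells with at least 2 UMIs, 75 in the WT title series alone and 100 under the members' limits. The 43 genes called against cytotoxic CD3 cells became 21, 169, 19, 23, 25 and 19 under the first 6 of these, and 30 under the members' limits, an alternative chosen after the data had been seen. They also became 20 with at least 3 effector UMIs, 22 in members with an Ncr1 or Klrb1c UMI and 25 in the CB title series alone. Without the pairing by mouse as a block the counts were 87 and 19. Leaving out each mouse in turn gave 135 to 142 and 27 to 46 genes, the second falling to 27 without mouse 4 and 28 without mouse 7. Under the members' limits it gave 37 to 105 (37 without mouse 2, 52 without mouse 5) and 20 to 26. Signs turned for Spp1 against CD3 cells under the members' limits (0.83, and 0.449, 0.428, 0.692 and 2.07 without mice 2, 4, 5 and 7), for Jun there without mouse 4 (0.0322) and for Lcn2 against cytotoxic CD3 cells under the same limits (0.00793). Of 48 named calls against CD3 cells 19, and of 20 against cytotoxic CD3 cells 11, kept call and direction in every fit that tested them. Of named genes not called, 7 against CD3 cells and 8 against cytotoxic CD3 cells passed in some other fit. Csn3 lost its call against cytotoxic CD3 cells in 1 of 4 leave-one-out fits, and Klf2 in 3 of 4. Mean shares of members stayed between 0.430% and 1.07% under all alternatives. A fit with at least 500 genes per cell was not possible, since only mouse 7 had at least 10 such members. The causes of these shifts were not tested. The members of the 4 mice gave 86993 UMIs, in which 3 counts make 34.5 CPM, so differences in rarer genes were not detectable at this depth.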

Other observations

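Further genes were higher in NK type cells too, named after their values were seen and, but for Junb of the immediate early list, outside the lists. Lgals3, a galectin, stood at 791, 891, 1172 and 1159 CPM in members and 411 CPM in cytotoxic CD3 cells. Against cytotoxic CD3 cells alone, 4 genes were higher: Anxa2 (log2 fold change 0.94 ± 0.27, edgeR adjusted p = 0.0284), its partner S100a10 (0.76 ± 0.22, 0.0354), the mitochondrial ATP synthase subunit Atp5g3 (1.02 ± 0.30, 0.0394) and Junb (0.43 ± 0.13, 0.0433), with Anxa2 higher in 3 of 4 mice and the other 3 genes in 4 of 4. Klra13-ps, a Ly49 pseudogene whose last 300 bases share 29.1% of 50-base words with other genes, was at 958, 382, 847 and 125 CPM in members and had 33 UMIs in the members with Klra4 or Klra8 alone and 2 in those with Gzmc alone. Areg, a growth factor of the epidermal growth factor family, had 10 UMIs in the Gzmc cells and 0 in the others.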
